A study of Mus musculus with 4 samples.

Results

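The 32 genes that carry fatty acids from the capillary into the mitochondria of a muscle fibre and burn them there were chosen by symbol, and all 32 were found among the 24054 gene symbols of the count table and had enough counts to be tested. They were read in 4 soleus libraries of mdx mice, all female and of the strain C57BL/10ScSn-DMD mdx/J, so that both groups lack normal dystrophin, the protein lost in Duchenne muscular dystrophy. Infusions into the femoral vein were given once a month from 8 weeks of age, and the muscles were taken at the 12-month endpoint. The mCDC group (n = 2) received mouse cardiosphere-derived cells, stromal cells grown from the heart of a healthy mouse of the same background and used at passage 5, and the vehicle group (n = 2) received the same volume of culture medium (IMDM). The cells came from the heart of a single donor mouse, muscle from mice without the mutation was not analysed here, and the labels do not say whether the libraries are separate animals, so that the tests measure the spread between these samples. In bulk muscle, fewer fibres and less RNA per fibre cannot be told apart.

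Long-chain fatty acids reach a fibre after lipoprotein lipase frees them from circulating triglyceride, cross the membrane with CD36 or a transport protein, and travel in the cytosol bound to a fatty acid binding protein. They are then activated to acyl-CoA, and are either stored in lipid droplets, from which lipases release them again, or passed into the mitochondrion as carnitine esters. Inside, the repeated cycle of beta oxidation shortens the chain and hands its electrons to the respiratory chain through the electron transfer flavoproteins. The soleus is a slow, oxidative muscle of the hindlimb that relies on this route. The question here is which steps of the route differed between mCDC and vehicle muscles, and by how much relative to the spread between libraries.

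Of the 32 genes, 29 had a log2 fold change above 0 (mCDC minus vehicle) and 3 below 0, with a median of 0.25, against -0.01 over all 13652 genes tested. Genes were called where the fold exceeded 1.5 and p before adjustment was below 0.05. By that rule Fabp3, the fatty acid binding protein of heart and muscle, Plin5, which coats lipid droplets and ties them to mitochondria, and Pdk4, which holds back the conversion of pyruvate to acetyl-CoA, were called higher, and no member was called lower. These 3 are 9.38% of the members, where 1.26% of all genes tested were called higher and 2.74% lower. In 21 members both mCDC libraries lay above both vehicle libraries, which is 65.6% of the members against 19.2% of all genes tested, and in 1 member, Cpt1a, both lay below, against 19.5%. In either direction the libraries of the groups did not overlap for 38.7% of all genes tested. 8 members had an unadjusted p under 0.05, all of them higher, where 6.94% of all genes tested had such a p, 2.85% higher and 4.09% lower. None of the 32 passed an adjusted p of 0.05 with edgeR's quasi-likelihood test, where the smallest was 0.462, as no gene of the 13652 did. With DESeq2, 2 members passed, Fabp3 and Plin5, of 48 genes in all (0.265% of 18132), and 8 had an unadjusted p under 0.05.

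The library totals lay between 22481391 and 27187425 expected counts, and members had between 77 and 56033 counts in a library. Over all genes, 172 were called higher and 374 lower, a split of 31.5% higher. It became 19.2% (121 and 508) without a scaling factor and 42.8% (211 and 282) with the dependence on transcript length and GC content removed. The calls over all genes, on which the shares given beside the members rest, also moved when a library was left out. Along the first principal component mCDC replicate 2, at -33.05, and vehicle replicate 2, at 29.85, stood at the ends. Markers of skeletal muscle were abundant in each library, with summed CPM (scaled for the size of each library) from 113549 to 126138. Of the defining markers of other tissues, Ucp1 of brown fat had at most 1 count in a library. Of 4 cardiac markers Myl7 had 0 counts and Nppa 5 to 7, while Myh6 and Myl4 were present at 54.3 to 75.1 and 83.1 to 101 CPM, with the groups overlapping. Among fast fibre genes, Myh4, the fastest myosin of mouse limb muscle, ranged from 47.5 CPM in mCDC replicate 2 to 2096 in mCDC replicate 1, with 163 and 411 in the vehicle libraries.

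A promoter window of each of the 3 called genes is shown because these were the members called, together with the stretch between Hadha and Hadhb, the genes of the alpha and beta subunits of the mitochondrial trifunctional protein. These last 2 genes run away from each other on chromosome 5 and their GENCODE gene models are 85 bases apart. Windows are from RefSeq on GRCm38.p6 and hold 250 bases before and 50 after a start site, in the direction of the gene. In the first 3, capitals mark AGGTCA, the half-site of nuclear receptors such as the PPARs, or CCAAT, on either strand. In the last, capitals mark the bases that lie between the Hadha and Hadhb gene models, and the RefSeq start site of Hadha lies outside them, within its gene model. Plin5 has a second window, chr17:56117249-56117548, which is not printed and holds AGGTCA at position 14 after its start site.
Fabp3, chr4:130308488-130308787, plus strand: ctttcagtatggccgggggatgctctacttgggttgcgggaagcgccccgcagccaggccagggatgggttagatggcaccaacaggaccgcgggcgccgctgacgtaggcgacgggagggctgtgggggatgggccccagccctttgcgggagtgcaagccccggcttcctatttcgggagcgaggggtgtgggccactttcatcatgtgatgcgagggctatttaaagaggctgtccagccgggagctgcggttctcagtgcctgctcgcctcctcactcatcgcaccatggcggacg
Plin5, chr17:56117499-56117798, minus strand: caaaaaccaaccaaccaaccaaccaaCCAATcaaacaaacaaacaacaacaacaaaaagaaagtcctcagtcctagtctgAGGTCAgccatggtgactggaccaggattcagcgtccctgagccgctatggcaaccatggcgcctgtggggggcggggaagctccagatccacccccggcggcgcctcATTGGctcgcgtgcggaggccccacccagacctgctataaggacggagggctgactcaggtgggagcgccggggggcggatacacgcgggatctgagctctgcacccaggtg
Pdk4, chr6:5496229-5496528, minus strand: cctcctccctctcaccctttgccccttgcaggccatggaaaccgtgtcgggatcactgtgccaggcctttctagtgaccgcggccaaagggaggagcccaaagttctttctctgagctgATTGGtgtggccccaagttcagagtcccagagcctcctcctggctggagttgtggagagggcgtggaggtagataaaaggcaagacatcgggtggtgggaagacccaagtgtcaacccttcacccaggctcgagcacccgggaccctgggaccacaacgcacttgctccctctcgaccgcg
Hadhb, chr5:30155003-30155302, plus strand: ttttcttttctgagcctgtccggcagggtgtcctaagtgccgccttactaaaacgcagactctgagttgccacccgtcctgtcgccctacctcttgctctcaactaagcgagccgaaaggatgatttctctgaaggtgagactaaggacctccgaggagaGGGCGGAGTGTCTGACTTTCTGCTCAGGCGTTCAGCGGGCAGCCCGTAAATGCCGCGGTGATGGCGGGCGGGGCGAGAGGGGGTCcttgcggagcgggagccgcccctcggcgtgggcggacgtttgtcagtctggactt

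Windows were found for 27 of the 32 members, 32 windows in all. AGGTCA or its complement was in 25% of them, against 16.3% of all 32851 windows of the same length, and the 7 members that hold it were Acadm, Acadvl, Cd36, Cpt1a, Echs1, Plin5 and Ucp3, of which Plin5 is the one called. CCAAT or its complement was in 40.6% of member windows and 37.4% of all windows, and the E-box CACGTG in 6.25% and 7.15%. The direct repeat of the half-site with a single base between its copies (DR1), read without mismatch, was in 0 of the member windows and in 0.0396% of all. In the Plin5 window shown, the half-site begins at position -170 relative to the start site. These are matches of letters, and binding was not measured.

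Uptake was led by Fabp3. Replicates 1 and 2 stood at 2122 and 2129 CPM after mCDC and at 1249 and 1231 after vehicle. The libraries of each group were nearly equal and the groups were far apart, a log2 fold change of 0.78 (standard error, SE, 0.15, 1.71-fold, adjusted p = 0.462). Fabp3 (chr4:130308595-130315463 on GRCm38, plus strand) also had the highest level of the 32 per length of transcript, with 2583 CPM per kilobase in mCDC and 1507 in vehicle muscles. Its exons share 81 bases with Zcchc17 on the other strand, and none of its 31-base words occurs in another listed gene.

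The other uptake genes were not called, and their libraries overlapped between the groups. Lpl, the lipase itself, had a log2 fold change of 0.01 (SE 0.16), from 1284 to 1527 CPM. Cd36 and Slc27a1, a fatty acid receptor and a transport protein of the membrane, had 0.17 (SE 0.15) and 0.05 (SE 0.16). Acsl1, which activates long-chain fatty acids, had 612 and 488 CPM after mCDC and 552 and 405 after vehicle, a log2 fold change of 0.20 (SE 0.19). Angptl4, a secreted inhibitor of lipoprotein lipase, had 15.8 and 13.2 CPM after mCDC but 2.94 and 16.2 after vehicle. The vehicle libraries thus differed more from each other than the groups did, and its log2 fold change of 0.59 (SE 0.59) was 2.30 without vehicle replicate 2 and -0.16 without vehicle replicate 1.

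**Figure D1:**
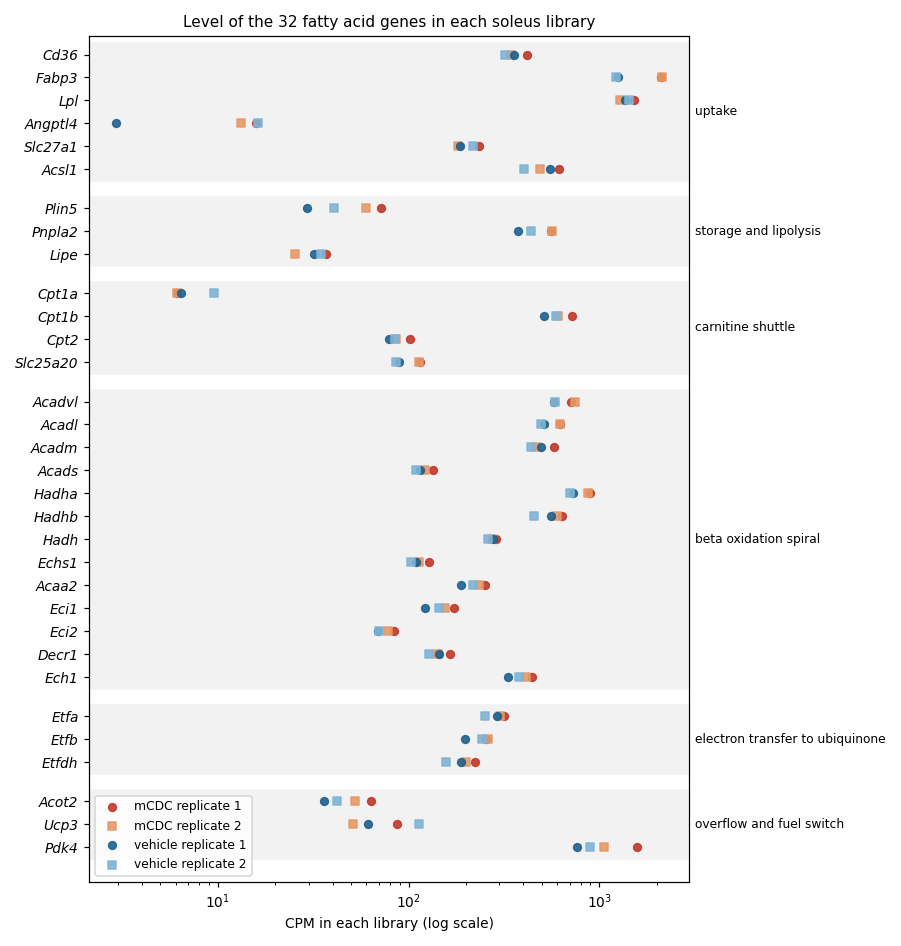
Level of each of the 32 genes in the 4 libraries, in CPM on a log scale, grouped by step, with red and orange points for mCDC and blue points for vehicle muscles. Fabp3 shows mCDC libraries at 2122 and 2129 and vehicle libraries at 1249 and 1231, and Angptl4 shows vehicle replicate 1 alone at 2.94.

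At the lipid droplet, Plin5 had the largest difference of the 32 genes. It had 71.3 and 59.5 CPM after mCDC and 29.2 and 40.8 after vehicle, a log2 fold change of 0.90 (SE 0.19, 1.87-fold, adjusted p = 0.516). Both mCDC libraries were higher than both vehicle libraries, and leaving out any library gave 0.68 to 1.16, with the gene still called. Plin5 lies at chr17:56111601-56117596 on the minus strand of GRCm38. Pnpla2, the lipase that takes the first fatty acid off a stored triglyceride, had 557 and 564 CPM after mCDC and 374 and 439 after vehicle. The groups did not overlap, and the log2 fold change of 0.46 (SE 0.14, adjusted p = 0.637) was below 1.5-fold. Lipe, the hormone-sensitive lipase that acts next, had 36.9 and 25.3 CPM against 32.1 and 34.6, and the mCDC libraries lay on either side of the vehicle libraries (log2 fold change -0.10, SE 0.20).

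Of 17 other droplet and triglyceride genes, 0 were called higher and 1, Gpam, was called lower, where 1.26% and 2.74% of all genes tested were called, and their median log2 fold change was -0.04. Gpam, which starts the synthesis of triglyceride, had 52.1 and 27.1 CPM after mCDC and 105 and 60.8 after vehicle (log2 fold change -1.06, SE 0.33, adjusted p = 0.643). It was not called without vehicle replicate 1, at -0.61, nor by DESeq2, at -1.06 with all 4 libraries. Plin4, another droplet coat protein, had a log2 fold change of -0.47 (SE 0.19, adjusted p = 0.713), with both mCDC libraries below both vehicle libraries, and was at -0.21 without mCDC replicate 2 and -0.78 without mCDC replicate 1. Plin2 and Plin3 had 0.06 and 0.01. The partner and the inhibitor of the Pnpla2 lipase, Abhd5 and G0s2, had -0.04 (SE 0.15) and -0.06 (SE 0.45), and G0s2 ran from 36.6 to 113 CPM between the vehicle libraries. Plin1 and Adipoq, made by fat cells, were low, from 0.728 to 5.11 and from 1.49 to 5.46 CPM, and both were highest in vehicle replicate 1 and lowest in vehicle replicate 2. Each of the 7 adipocyte markers had a log2 fold change below 0, and 6 of them overlapped between the groups. Without vehicle replicate 1 Adipoq, Plin1, Cidec, Lep, Retn and Cfd were above 0, from 0.87 to 1.72, and Fabp4 was at -0.80. Summed CPM was 153 and 150 in the mCDC and 189 and 218 in the vehicle libraries, most of it Fabp4. The part of fat cells in the droplet results was not tested.

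In the carnitine shuttle 3 of 4 genes had both mCDC libraries above both vehicle libraries, 1 had both below and 0 were called. Over all genes tested 19.2% lay above, 19.5% below, 1.26% were called higher and 2.74% lower. Cpt1b, the muscle form of the enzyme that makes acylcarnitine at the outer mitochondrial membrane, had 724 and 609 CPM after mCDC and 515 and 592 after vehicle (log2 fold change 0.27, SE 0.16). The groups did not overlap, but the lower mCDC and the higher vehicle library were close, and it was 0.14 without mCDC replicate 1. Cpt1a, the liver form, had 6.14 and 6.12 CPM against 6.41 and 9.57, a log2 fold change of -0.38 (SE 0.24, adjusted p = 0.763). It was -0.07 without vehicle replicate 2 and -0.64, and called lower, without vehicle replicate 1. Per length of transcript Cpt1b was at 230 and 191 CPM per kilobase in mCDC and vehicle muscles, and Cpt1a at 1.42 and 1.85, the lowest of the 32 genes in each group. Slc25a20, the carrier that swaps acylcarnitine for carnitine across the inner membrane, had 115 and 113 CPM after mCDC and 88.8 and 86.1 after vehicle. The libraries of each group were close together and the log2 fold change was 0.38 (SE 0.13, adjusted p = 0.673), 1.30-fold. Leaving out any library gave 0.35 to 0.40. Cpt2, which restores the acyl-CoA inside, had 0.20 (SE 0.14). Of the 31-base words of Cpt1b, 81% also occur in ChkbCpt1b, a read-through gene listed separately at 4.33 to 22.2 CPM, and the sum of both had the same log2 fold change of 0.27.

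All 13 genes of the beta oxidation cycle had a log2 fold change above 0, between 0.06 and 0.33, with a median of 0.26. In 10 of them both mCDC libraries were above both vehicle libraries, an order seen in 19.2% of all genes tested, while 0 were called, against 1.26% of all genes called higher. Acadvl, the dehydrogenase for very long chains at the inner membrane, had 713 and 747 CPM after mCDC and 576 and 585 after vehicle (log2 fold change 0.33, SE 0.13, adjusted p = 0.713). Acadl, for long chains, had 624 and 624 against 515 and 495 (log2 fold change 0.31, SE 0.13, adjusted p = 0.713). For these 2 the difference between groups exceeded the spread within either group. Acadm and Acads, for medium and short chains, had 0.16 (SE 0.16) and 0.18 (SE 0.13), and Acadm overlapped between the groups. Acadvl shares 1151 exon bases with Dvl2 on the other strand, and the sources used here do not say whether counting used strand.

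Hadha and Hadhb, the pair on either side of the stretch printed in capitals, had log2 fold changes of 0.30 (SE 0.14) and 0.29 (SE 0.15). They were singled out for their position after their values were seen. Hadha had 895 and 870 CPM after mCDC and 730 and 706 after vehicle, and Hadhb 637 and 602 against 559 and 453. Neither overlapped between the groups, and Hadhb was at 0.15 without vehicle replicate 2 and 0.45 without vehicle replicate 1. Hadh, the dehydrogenase for shorter chains, had the smallest difference of the cycle, 0.06 (SE 0.13), with 273 to 287 CPM in mCDC and 260 to 276 in vehicle muscles. The matrix hydratase Echs1 and thiolase Acaa2 had 0.19 and 0.26. Eci1, an isomerase needed for unsaturated fatty acids, had 174 and 155 CPM after mCDC and 122 and 144 after vehicle (log2 fold change 0.31, SE 0.14, adjusted p = 0.724), and was at 0.19 without vehicle replicate 1. The other enzymes for unsaturated chains, Eci2, Decr1 and Ech1, had 0.22, 0.18 and 0.27, and of these Decr1 overlapped between the groups.

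Electrons from the acyl-CoA dehydrogenases pass to the flavoprotein made of Etfa and Etfb and on to ubiquinone by Etfdh. Each of these 3 genes had both mCDC libraries above both vehicle libraries, as did 19.2% of all genes tested. Etfdh had 222 and 201 CPM against 188 and 158 (log2 fold change 0.29, SE 0.14, adjusted p = 0.726). Etfb had 256 and 261 against 197 and 244 (0.23, SE 0.15), and Etfa 318 and 303 against 291 and 252 (0.19, SE 0.14). For all 3 the vehicle libraries were further apart than the nearest libraries of the 2 groups. Without vehicle replicate 1 or 2 the log2 fold change was 0.09 or 0.39 for Etfb, 0.31 or 0.09 for Etfa and 0.43 or 0.17 for Etfdh.

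**Figure D2:**
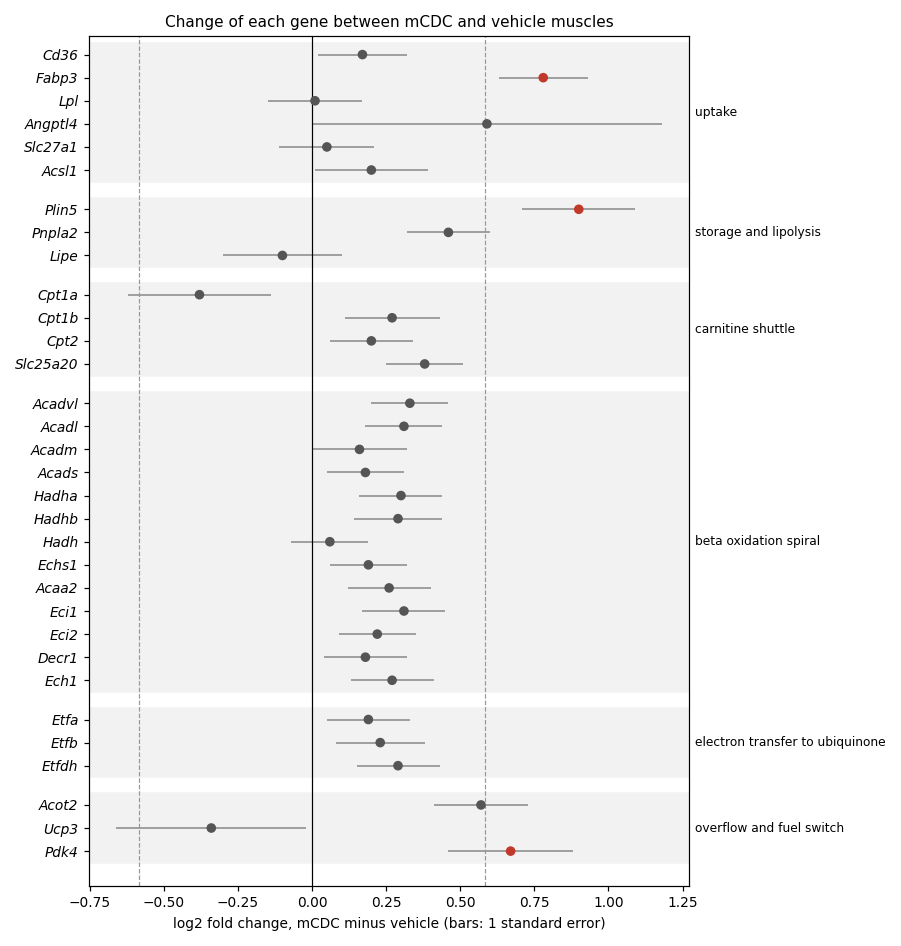
Log2 fold change (mCDC minus vehicle) of each gene with bars of 1 standard error from edgeR's quasi-likelihood fit, with called genes in red and dashed lines at 1.5-fold. Fabp3, Plin5 and Pdk4 are called, all 13 cycle genes lie between 0.06 and 0.33, and Lipe, Cpt1a and Ucp3 lie below 0.

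Pdk4, Acot2 and Ucp3 are genes that muscle is known to raise when fatty acids are plentiful, and they differed from each other here. Pdk4, a kinase that inactivates pyruvate dehydrogenase and so spares glucose, had 1583 and 1057 CPM after mCDC and 769 and 894 after vehicle (log2 fold change 0.67, SE 0.21, 1.59-fold, adjusted p = 0.643). It lies at chr6:5483351-5496309 on the minus strand of GRCm38. The mCDC libraries were above both vehicle libraries but also far apart, and the log2 fold change was 0.35 without mCDC replicate 1 and 0.57 without vehicle replicate 1, in both cases no longer called. Acot2, a thioesterase of the mitochondrial matrix that frees fatty acid from acyl-CoA, had 63.9 and 52.5 CPM against 36.1 and 42.4 (log2 fold change 0.57, SE 0.16, adjusted p = 0.619), just under 1.5-fold. It shares 29.9% of its 31-base words with its neighbour in sequence Acot1, so that reads may be split between them. Summed with Acot1, a sum chosen after the values were seen, it was at 0.60 and called. Ucp3, a mitochondrial carrier of the uncoupling family, had 87.1 and 51.2 CPM after mCDC and 61.0 and 114 after vehicle, with the groups fully mixed (log2 fold change -0.34, SE 0.32). It was -0.77 and called lower without mCDC replicate 1, and 0.18 without vehicle replicate 2.

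The other genes that control or flank the route were read from lists of 8 kinds. In each, few or none were called, against 1.26% of all genes tested called higher and 2.74% lower. Of 13 tested genes of uptake and activation, 0 were called higher and 1 lower, Gpihbp1, which holds lipoprotein lipase on the capillary wall, at 5.87 and 8.54 CPM in the mCDC and 9.20 and 19.6 in the vehicle libraries (log2 fold change -1.0, SE 0.36, adjusted p = 0.685). It was not called without vehicle replicate 2, at -0.36, or without mCDC replicate 1, at -0.75. The 5 endothelial markers, Gpihbp1 among them, summed to 197 CPM in vehicle replicate 2 and to between 88.9 and 106 in the other 3. Fabp4 and Fabp5, binding proteins of fat cells, capillaries and macrophages, had -0.50 (adjusted p = 0.713) and -0.56 (adjusted p = 0.742). Fabp4 had 115 and 114 CPM after mCDC and 124 and 200 after vehicle, and Fabp5 4.13 and 3.84 against 4.16 and 7.60. Vehicle replicate 2 was the highest library for both, and without it they were at -0.12 and -0.06. The part of capillary content in these results was not tested.

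Genes that set malonyl-CoA, the inhibitor of CPT1, had a median of 0.02 with 0 of 11 called. Mlycd, which destroys malonyl-CoA, had 213 and 173 CPM after mCDC and 141 and 152 after vehicle (log2 fold change 0.40, SE 0.15, adjusted p = 0.705), with both mCDC libraries above both vehicle libraries, and was at 0.24 without mCDC replicate 1. Acaca, which makes it, had 18.7 and 21.7 against 25.8 and 26.1 (-0.36, SE 0.16, adjusted p = 0.713), with both mCDC libraries below, and was at -0.15 with the trend on length and GC taken out. Acacb, the form abundant in muscle, overlapped between the groups at -0.10 (SE 0.14).

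Beyond the 13 cycle genes, 18 further genes of acyl-CoA metabolism, some of them in amino acid breakdown, had a median of 0.08, and 1 (5.56%), Acot1, was called higher, against 1.26% of all genes tested. Acot1 had 4.24 and 1.37 CPM after mCDC and 0.878 and 1.27 after vehicle (log2 fold change 1.40, SE 0.53, adjusted p = 0.705). It was called in 1 of the 4 fits that leave out a library, and not without mCDC replicate 1 (0.35), vehicle replicate 1 (1.16) or vehicle replicate 2 (1.69), nor with the replicate number as a block (1.26). The 15 tested genes of peroxisomal oxidation had a median of -0.04 and 0 calls, and Abcd2, a peroxisomal importer of fatty acids, was at -0.52 (SE 0.22, adjusted p = 0.713), and at -0.28 without mCDC replicate 2. The 6 ketone body genes had a median of 0.09. Bdh1, which interconverts the 2 main ketone bodies, had 181 and 286 CPM against 151 and 161 (log2 fold change 0.58, SE 0.21, adjusted p = 0.685), and was not called. Leaving out mCDC replicate 2 gave 0.22 and leaving out mCDC replicate 1 gave 0.87. The 12 genes of the pyruvate gate other than Pdk4 had a median of 0.09 and 0 calls, and Pdk2, the other abundant kinase of muscle, was at 0.06 (SE 0.15). Pdp1, the phosphatase that opposes Pdk4, had 37.0 and 33.8 CPM against 50.2 and 41.0 (-0.36, SE 0.16, adjusted p = 0.713), and was at -0.21 without vehicle replicate 1.

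Among 19 regulators of these genes, 0 were called higher and 2 lower, where 1.26% and 2.74% of all genes tested were called, and neither of the 2 was called without vehicle replicate 1. Ppargc1a, the coactivator PGC-1alpha that drives oxidative genes in muscle, had 35.7 and 29.6 CPM in the mCDC and 60.3 and 45.6 in the vehicle libraries (log2 fold change -0.70, SE 0.18, adjusted p = 0.612). Both mCDC libraries were lower, although it was -0.49 once the trend on length and GC was taken out, and not called, -0.48 without vehicle replicate 1 and -0.57 without mCDC replicate 2. Foxo3, a transcription factor of fasting and atrophy, was at -1.13 (SE 0.41, adjusted p = 0.695), with vehicle replicate 1 at 11.5 CPM and the other 3 libraries between 3.33 and 4.51, and -0.30 without that library. Ppara, the receptor that binds fatty acids, had 39.0 and 26.4 against 54.7 and 39.3 CPM (-0.52, SE 0.23, adjusted p = 0.713), with the nearest libraries of the groups almost equal. It was -0.26 without vehicle replicate 1 and -0.27 without mCDC replicate 2. Ppard, Esrra and Rxra, which are also known to act on oxidative genes in muscle, had 0.11, 0.26 and 0.06.

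**Figure D3:**
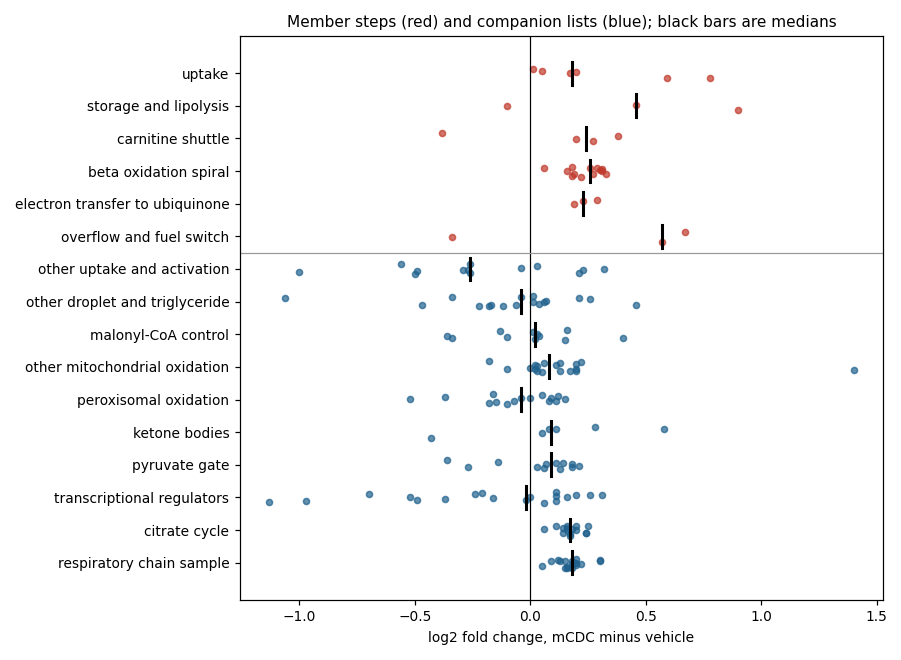
Log2 fold change (mCDC minus vehicle) of each tested gene by list, with the 6 steps of the 32 genes in red, the companion lists in blue and black bars at the medians. Medians of the steps run from 0.18 to 0.57, those of the citrate cycle and respiratory chain lists are 0.17 and 0.18, and that of other uptake genes is -0.26.

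The route feeds the citrate cycle and the respiratory chain, and listed genes of both were read beside it. The respiratory chain list is a sample of 18 genes, and it also holds the mitochondrial channel Vdac1 and the carrier Slc25a4. All 15 listed citrate cycle genes and all 18 of the sample had a log2 fold change above 0, with medians of 0.17 and 0.18 and 0 called. In 73.3% and 72.2% of them both mCDC libraries were above both vehicle libraries, as in 65.6% of the 32 fatty acid genes. The mean log2 CPM of the 32 genes was 7.88 and 7.69 after mCDC and 7.44 and 7.58 after vehicle, and that of the 13 beta oxidation genes was 8.25 and 8.14 against 7.97 and 7.95. The slow fibre markers had a median of 0.14, 5 of 8 had both mCDC libraries above both vehicle libraries (19.2% of all genes tested did) and 0 were called, and Myh7, the slow myosin, was at 0.01 (SE 0.30). The 6 fast fibre markers overlapped between the groups. The part of fibre type in the fatty acid results was not tested.

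Of the 32 genes, 25 had their highest level in mCDC replicate 1, 4 in mCDC replicate 2 and 3 in vehicle replicate 2. 28 were higher in mCDC replicate 1 than in mCDC replicate 2. The share of all genes tested with their highest level in mCDC replicate 1 was not counted. Of the 6 fast fibre markers, Myh4, Pvalb and Actn3 were also highest in mCDC replicate 1. Myh1 was highest in vehicle replicate 1, and Tnnt3 and Tnni2 in vehicle replicate 2. Of the 8 slow fibre markers, Myl2, Myl3, Tnnt1, Tnni1, Tnnc1 and Tpm3 were highest in mCDC replicate 1, and Myh7 and Atp2a2 in vehicle replicate 1. Without mCDC replicate 1 the median of the 32 genes was 0.19 and 26 of 32 were above 0, with Fabp3 and Plin5 called. Fabp3 and Plin5 were called with each library left out in turn, while Pdk4 was called in 2 of those 4 fits. By step, the uptake median of 0.18 was 0.03 without mCDC replicate 1, 0.12 without either vehicle library and 0.33 without mCDC replicate 2, and the median of Pdk4, Acot2 and Ucp3 was 0.57 with all libraries and 0.35 without mCDC replicate 1. In 24 of the 32 genes the log2 fold change stayed above 0 whichever library was left out.

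**Figure D4:**
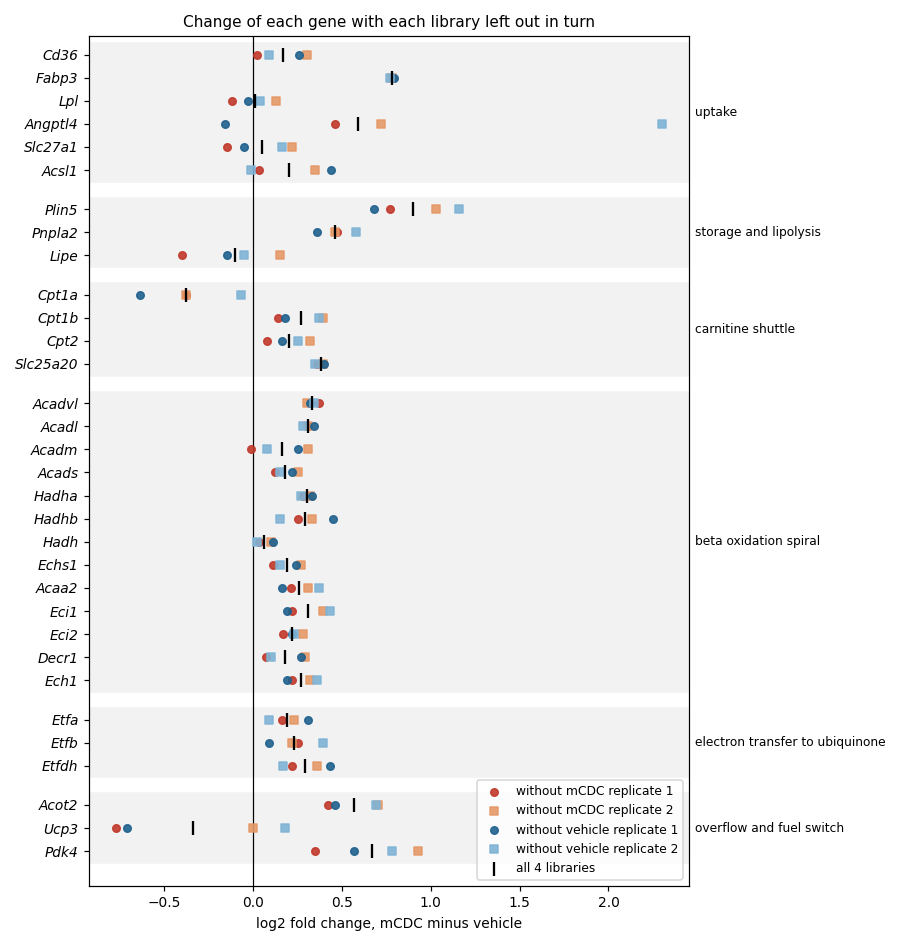
Log2 fold change (mCDC minus vehicle) of each gene with all 4 libraries (black ticks) and after dropping any 1 of them (coloured points). Fabp3 runs from 0.77 to 0.79 and Slc25a20 from 0.35 to 0.40, while Angptl4 runs from -0.16 to 2.30 and Ucp3 from -0.77 to 0.18.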

How the data were processed

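Soleus RNA from 2 mCDC and 2 vehicle libraries was sequenced. Reads had been aligned by the authors to UCSC transcripts, and what they deposited were expected counts from RSEM, estimated per gene and not normalized. The submitters' processing notes name Bowtie2 2.1.0, RSEM 1.2.15 and mm10. Totals were 22481391 to 27187425, and the 15.7% of values with any decimal part other than 0 were rounded. The paper and the sample records name different library kits.

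All 13652 genes that passed filterByExpr were fitted together by edgeR 4.0.16 (R 4.3.3, TMM factors, quasi-likelihood F-test, two-sided, legacy = FALSE) with Benjamini-Hochberg adjustment. The thresholds for calls are those of the study. The SE is the absolute log2 fold change over the square root of F. For 2 against 2 the smallest p of exact permutation is 0.333. CPM used TMM-scaled totals, and log2 CPM a prior count of 2. Lengths and coordinates came from GENCODE M21 (longest coding transcript), which paired 23666 of 24054 symbols. In simulated data with 200 changed genes, 83.7% of those changed 2-fold and 100% of those changed 4-fold were called. Smaller changes were not simulated, and the median member was at 1.19-fold, so these shares do not apply to most members.

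The members and lists were chosen with earlier results of these data known. Values per library are given for members called or with p under 0.05 and for the 3 largest changes of each step. Of companion lists, called genes and up to 3 others with large changes are named, not all of them with values per library. Other partners were named for their role after values were seen. Alternatives were DESeq2 1.42.0, other size factors, other filters, the legacy test, a replicate block, correction for length and GC, summed copies (chosen after seeing the data) and leaving out each library.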

Additional observations from a re-analysis of the deposited data

How the results depend on the processing

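Leaving out a library leaves a group with a single sample, whose spread is taken to be that of the other group. The number of calls over all genes moved widely between these fits, and the order of the groups is read from fewer libraries. The counts of members in these fits therefore cannot be set against the shares of all genes tested, which are for all 4 libraries. Over those 4 fits the number of members called higher ran from 2 to 5 and lower from 0 to 1, and with an unadjusted p under 0.05 from 3 to 10 higher and 0 to 1 lower. The members below in each mCDC library ran from 1 to 5, and none had an adjusted p under 0.05. The 5 calls came without vehicle replicate 2, with Angptl4 and Acot2 added, and the calls lower were Ucp3 without mCDC replicate 1 and Cpt1a without vehicle replicate 1. Medians ran from 0.03 to 0.33 for uptake, 0.35 to 0.70 for overflow and fuel switch, 0.02 to 0.17 for the pyruvate gate, 0.11 to 0.36 for the carnitine shuttle, 0.17 to 0.31 for electron transfer, -0.38 to -0.12 for other uptake and activation, -0.13 to 0.13 for malonyl-CoA control, 0.03 to 0.21 for other mitochondrial oxidation, 0.05 to 0.24 for ketone bodies, -0.30 to 0.11 for regulators and 0.14 to 0.20 for the citrate cycle. The log2 fold change turned sign in these fits for Lpl (-0.12 to 0.13), Angptl4 (-0.16 to 2.30), Slc27a1 (-0.15 to 0.22), Acsl1 (-0.01 to 0.44), Lipe (-0.40 to 0.15), Acadm (-0.01 to 0.31) and Ucp3 (-0.77 to 0.18). With library totals alone the medians were 0.18 for the beta oxidation cycle, 0.15 for electron transfer, 0.09 for the citrate cycle, 0.10 for the respiratory chain and -0.06 for malonyl-CoA control, while Lpl was at -0.08, Slc27a1 at -0.03 and Hadh at -0.02; the median of all genes was then -0.089. With upper-quartile factors the citrate cycle was at 0.14 and Lpl at -0.03. With the length and GC trend removed, 0 members had both mCDC libraries below both vehicle libraries and other uptake was at -0.07. DESeq2 gave 2 members an adjusted p under 0.05. The cause of these changes was not tested. Fabp3, Plin5 and Pdk4 were called in every fit with all 4 libraries. Same-numbered libraries did not deviate together (r = -0.039 across genes), and with the replicate block the same 3 members were called.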

Other observations

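Of 5 listed macrophage markers 4 were read from the fit, with 1 called higher and 1 lower, against 1.26% and 2.74% of all genes tested. Cd68 was called higher, at 4.13 and 15.4 CPM after mCDC and 2.71 and 4.15 after vehicle, and the groups overlapped. Its log2 fold change was 1.49 (adjusted p = 0.70 with edgeR's quasi-likelihood test). It was 0.27 and not called without mCDC replicate 2, nor was it called without vehicle replicate 1 (1.23) or vehicle replicate 2 (1.84) or by DESeq2 (1.52). Csf1r was called lower, at 5.11 and 3.93 CPM after mCDC and 5.57 and 8.84 after vehicle (log2 fold change -0.67, adjusted p = 0.713 with the same test). That call was lost without vehicle replicate 2 (-0.30) or mCDC replicate 2 (-0.50), with length and GC removed (-0.59), with the replicate block (-0.64), by DESeq2 (-0.66) and with no filter on low counts (-0.67). The summed level of the 4 was highest in mCDC replicate 2, at 26.1 CPM, and Cd68 made 15.4 of it. The sum was between 16.1 and 20.8 in the other 3 libraries. In mCDC replicate 2 Csf1r and Cd163 were at their lowest, at 3.93 and 2.28 CPM. Mrc1 had 4.52 there, within a range of 3.94 to 4.87 over the libraries. Adgre1, which the count table lists as Emr1, was not looked up in the fit. Its counts were 28 and 8 after mCDC and 18 and 40 after vehicle, lowest in mCDC replicate 2. Cidea, a lipid droplet protein also used as a marker of brown fat, had 15.2 and 15.9 CPM after mCDC and 12.8 and 13.4 after vehicle (log2 fold change 0.24) and was not called. Nrip1, a corepressor of oxidative genes, was at -0.97 (adjusted p = 0.726 with edgeR's quasi-likelihood test) and at -0.15 without vehicle replicate 1.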
